A study of Homo sapiens with 10 samples.

Results

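Gene expression of NKX2-1 GFP+ cells at day 45, the last day of the time course, was compared with that at day 16, the progenitor stage and the first day sampled. The comparison rests on 4 of the 10 libraries of the series, 2 biological replicates at each end, and on every gene with at least 5 counts in at least 2 of the 10 libraries, which is 21014 of the 28265 gene symbols counted. Cells came from the human embryonic stem cell line ESIBIe003-A-6, in which 1 NKX2-1 allele drives GFP and doxycycline switches on added copies of NKX2-1 and PAX8, and live GFP+ cells were sorted from dissociated organoids, several wells being pooled for each library. Day 16 cells had been through the doxycycline step and were in basal medium by the study's methods, after doxycycline was withdrawn, although their label names c-AMP. Day 45 cells had then received 8-br-cAMP, a cell-permeable cAMP analogue, followed by recombinant human TSH with the glucocorticoid dexamethasone, and at the end SB431542, an inhibitor of TGF-beta receptors (label TSH SB). Age in culture and medium changed together between these days and cannot be told apart here. The sort selects cells that express the NKX2-1 reporter, which lung and forebrain cells can also do, and reads of the endogenous NKX2-1 and PAX8 coding sequences cannot be separated from reads of the transgenes.

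The follicular cell of the thyroid makes thyroid hormone on a large secreted scaffold, thyroglobulin (TG). Iodide enters at the basal side through the sodium iodide symporter (SLC5A5), the dual oxidases DUOX1 and DUOX2 supply hydrogen peroxide at the lumen, and tyrosines of TG are iodinated and coupled there. TSH, through its receptor TSHR and mainly through cAMP, controls these steps, while the transcription factors NKX2-1, PAX8, FOXE1 and HHEX mark the lineage from the early bud on.

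The day 16 libraries held 7550260 and 8186969 counts, and the day 45 libraries 7247268 and 9592839, so that 3 counts, taken as the floor of a library, correspond to 0.328 to 0.435 CPM. CPM are counts relative to the TMM-scaled size of the library, and values below are CPM unless called counts, and log2 fold changes are day 45 against day 16 with their standard error (SE) from edgeR's quasi-likelihood fit. Replicates correlated at r = 0.943 at day 16 and 0.940 at day 45 (Pearson, log2 CPM across genes, which are not independent replicates), against 0.853 to 0.865 between the days.

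At an adjusted p under 0.05, 5175 genes were called, 24.6% of those tested, with 2721 higher at day 45 (12.9%) and 2454 lower (11.7%). Of these, 1705 were higher by at least 1 log2 (8.11%) and 1547 lower by as much (7.36%), while 574 rose and 292 fell by at least 3 log2. The median over all genes tested was 0.00 and the median size among called genes 1.27 log2. For 5561 genes (26.5%) the 95% interval lay within 1 log2 of no change. Among genes named by rank, TG rose most of those with more than 3 counts in both day 16 libraries, and DPP6 fell most of those with more than 3 counts in both day 45 libraries. By share of counted reads, the 5 largest gains were those of TG, the small nuclear RNA RNU4-2 (0.304% to 0.906%), the noncoding RNA NEAT1 (0.332% to 0.711%), RNU4-1 (0.187% to 0.363%) and the collagen COL3A1 (0.0414% to 0.182%).

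**Figure D1:**
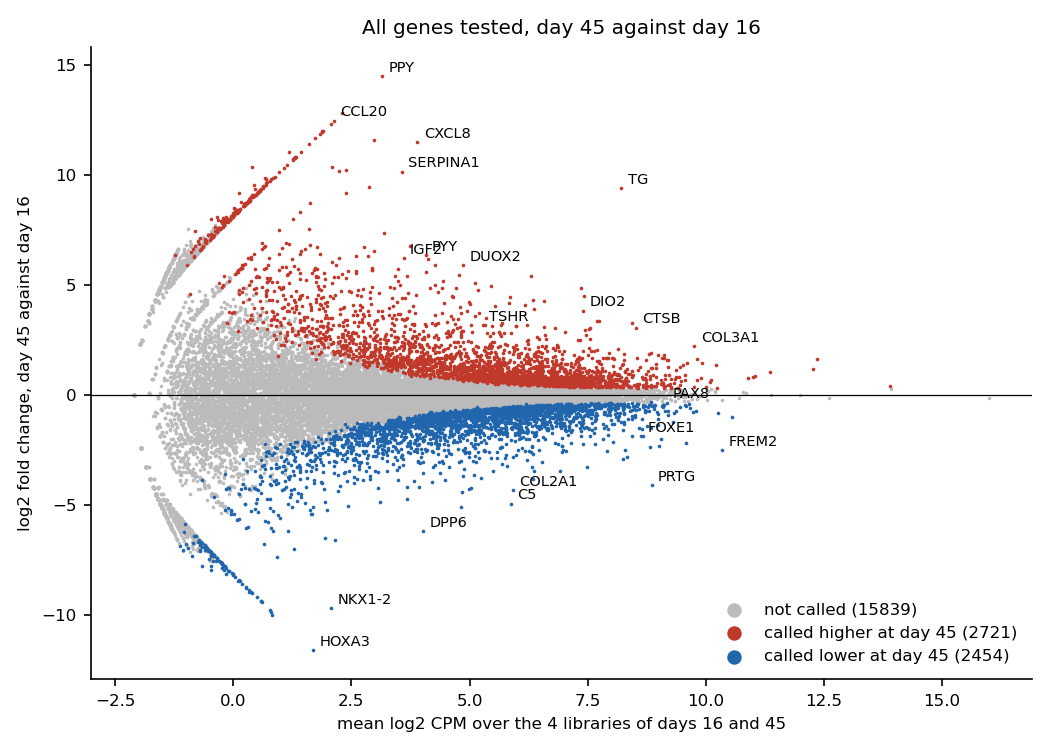
Each point is 1 of the 21014 genes tested, with its mean log2 CPM over the 4 libraries on the x axis and its log2 fold change on the y axis, red for the 2721 called higher, blue for the 2454 called lower and grey for the rest. TG stands apart at high expression with a log2 fold change of 9.43, and the diagonal arms at the left are genes with 0 counts at one day, whose fitted fold change depends on the prior count.

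The 4 lineage factors were counted in every library at both ends. Of them 1 was called higher at day 45 and 3 lower, beside 12.9% and 11.7% of all genes. PAX8 (chr2:113215997-113278921 on GRCh38), a paired-box factor needed for follicular cells, stood at 727 and 572 CPM at day 16 and at 536 and 500 at day 45, a log2 fold change of -0.33 (SE 0.12, edgeR adjusted p = 0.0453). NKX2-1 (chr14:36516392-36521149), the homeobox factor behind the reporter, fell from 90 and 83.8 CPM to 58.1 and 66.7 (-0.48, SE 0.15, edgeR adjusted p = 0.0202). The differences of PAX8 and NKX2-1 were both under 1.5-fold. FOXE1 (chr9:97853226-97856717), a forkhead factor of thyroid bud and follicle, moved further, from 897 and 630 CPM to 204 and 218, which is 3.62-fold lower (log2 fold change -1.86, SE 0.14, edgeR adjusted p = 6.1e-13). HHEX, a homeobox factor of the bud, rose from 96 and 133 CPM to 149 and 162 (0.44, SE 0.14, edgeR adjusted p = 0.0205), after levels of 364 and 356 CPM (means of 2) at days 23 and 31. With only the 4 libraries of these days in the fit, the calls of NKX2-1, PAX8 and HHEX were lost (edgeR adjusted p = 0.106, 0.116 and 0.111), and so they were without day 16 replicate 1 (0.0646, 0.435 and 0.341). Leaving out a day 45 library also ended the call of NKX2-1 (replicate 1, edgeR adjusted p = 0.163), of PAX8 (replicates 1 and 2, 0.0705 and 0.213) and of HHEX (replicate 2, 0.129), and HHEX was not called without TMM factors (0.062). NKX2-1 shares its span with SFTA3 on the same strand and overlaps NKX2-1-AS1, and PAX8 overlaps PAX8-AS1 on the opposite strand, so their counts are uncertain to that extent. In bulk RNA from sorted cells, a lower value can come from fewer cells that express a gene or from less RNA per cell, and these cannot be told apart for any gene below.

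Of 14 genes of the hormone synthesis machinery, all tested, 10 were called higher and 1 lower, against 12.9% and 11.7% of all genes, with a median of 2.77 log2. The day 16 libraries held 84 and 95 counts of TG (chr8:132866958-133134903), and the day 45 libraries 54854 and 68901. In CPM this was 10.6 and 11.7 against 7961 and 7523, a 693-fold rise (log2 fold change 9.43, SE 0.15, edgeR adjusted p = 5.9e-32). At day 45, TG alone took 0.738% of counted reads, up from 0.00114%.

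DUOX2 (chr15:45092650-45114172), the main peroxide source of the follicle, went from 5.07 and 2.46 CPM to 227 and 224 (59.9-fold, 5.90 log2, SE 0.27). The day 16 libraries of DUOX2 held only 40 and 20 counts, far below the 1565 and 2052 of day 45, and without day 16 replicate 1 the difference was 6.5 log2. SLC5A5 (chr19:17871945-17895174) was measured at low counts throughout, 23 and 14 in the first pair of libraries and 92 and 158 in the last. Its CPM of 2.92 and 1.72 became 13.4 and 17.3, a 6.6-fold difference with a wide error (2.72 log2, SE 0.80, edgeR adjusted p = 0.0104). The call of SLC5A5 was lost without day 16 replicate 2 (2.39 log2, edgeR adjusted p = 0.0795) and without day 45 replicate 2 (2.52 log2, 0.0834).

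The remaining members split by step. For iodide transport at the apical side, SLC26A7 rose 4.78-fold (19 and 27.5 CPM to 91.4 and 131), and the chloride channel ANO1 went from 3 counts in all to 114. That ANO1 ratio was 37.8 with a 95% counting interval of 12.6 to 186. Pendrin (SLC26A4) stayed near the floor, with 0 and 4 counts before and 16 and 29 after, and did not pass (edgeR adjusted p = 0.21). The potassium channel subunit KCNQ1, which overlaps the antisense RNA KCNQ1OT1, rose 11.4-fold, whereas its partner KCNE2 was barely counted at either end (16 and 8, then 7 and 0) and did not pass. SLC5A6, a sodium-dependent vitamin transporter that can also carry iodide, had 21.8 and 22.8 CPM and then 10.4 and 17.5 and did not pass either (-0.67 log2, 95% interval -1.31 to -0.02), although it was called lower without day 45 replicate 2 (edgeR adjusted p = 0.0465). DUOX1 and the maturation factors DUOXA1 and DUOXA2 were called higher at 1.20, 2.51 and 2.83 log2. DUOXA1 and DUOXA2 overlap on opposite strands over 1056 bases, and the strand setting of the counting is not given in the sources used here, so the split of reads between them is uncertain. The member called lower was IYD, the dehalogenase that recycles iodide from uncoupled iodotyrosines. It fell from 117 and 88 CPM to 69.1 and 80.5 (-0.45, SE 0.15, edgeR adjusted p = 0.0246), after means of 207 at day 31 and 189 at day 38. The call of IYD was lost with the 4 libraries alone (edgeR adjusted p = 0.118), without day 16 replicate 1 (0.328) and without day 45 replicate 1 (0.202).

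**Figure D2:**
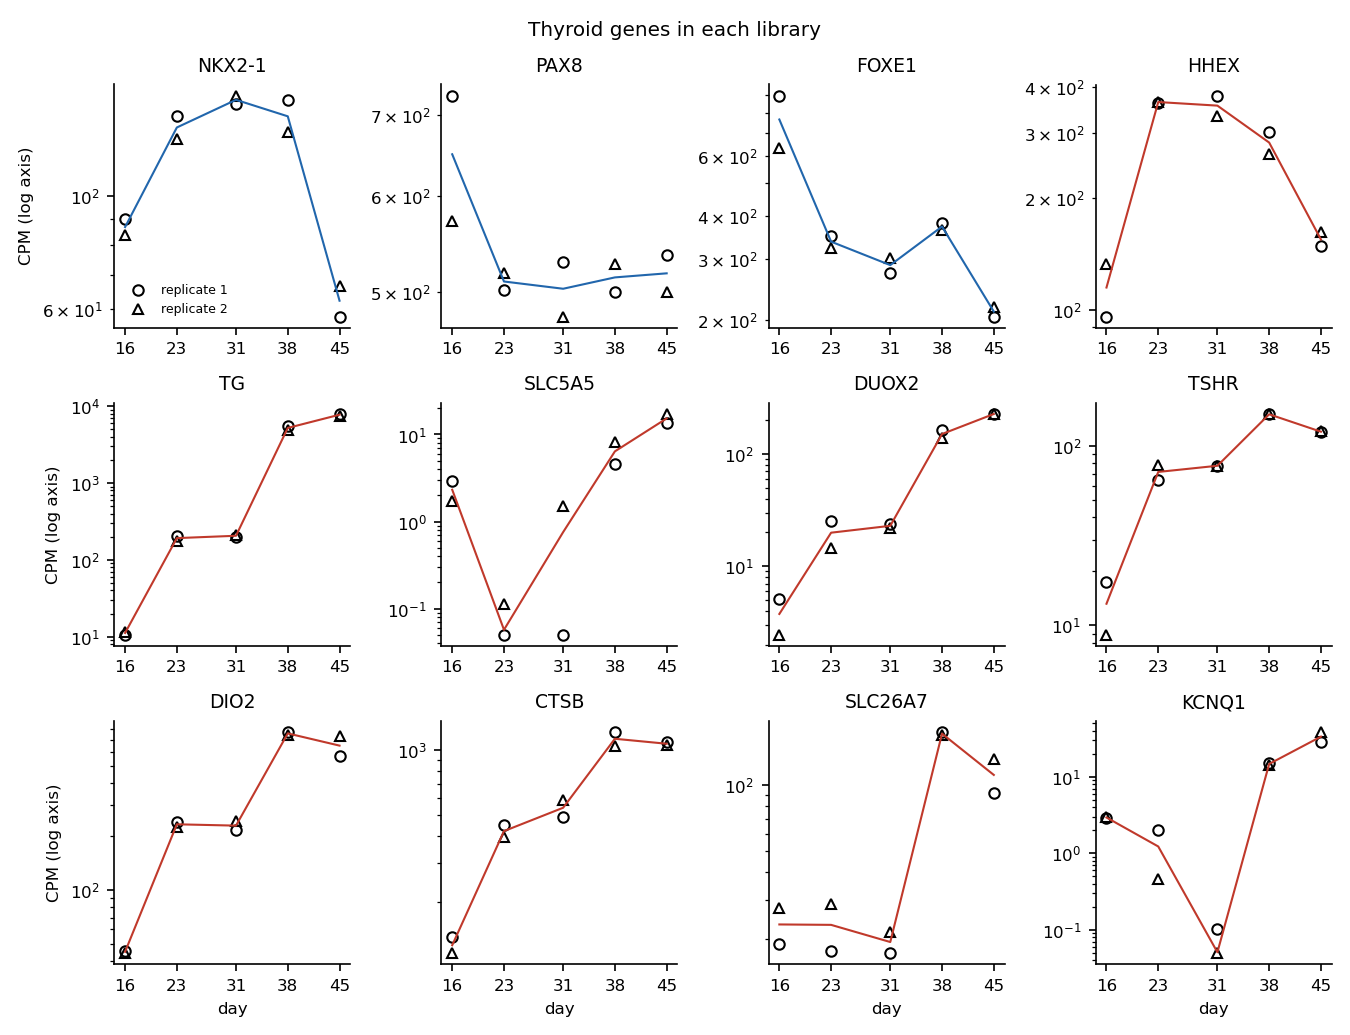
CPM on a log axis against day, with 1 panel per gene, circles and triangles for replicates 1 and 2 of each day and a line through the day means, red where day 45 was higher than day 16 and blue where it was lower, and values under 0.05 drawn at 0.05. TG and DUOX2 rose at day 23 and again at day 38, SLC5A5 dipped below its day 16 level at days 23 and 31 before rising, and FOXE1 was at its highest at day 16.

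TG had means of 192 CPM at day 23 and 206 at day 31 before it reached 5209 at day 38 and 7742 at day 45. DUOX2 was similar in shape, at 19.9 and 22.9 CPM and then 150 and 226. SLC5A5 instead had means of 2.32 CPM at day 16, 0.0571 and 0.756 at days 23 and 31, and then 6.4 and 15.3. Its day 23 libraries were under the floor, at 0 and 1 counts, while those of day 31 were uneven, at 0 and 13 counts. For SLC5A5, then, the comparison of the ends starts from a level that was not the lowest of the course.

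Among genes of TSH receptor signalling, the receptor was called higher. TSHR (chr14:80954989-81146306) rose from 17.5 and 8.86 CPM to 120 and 121, 9.13-fold (3.19 log2, SE 0.22, edgeR adjusted p = 5.0e-14). It overlaps CEP128 on the opposite strand over 4529 bases, so a part of its reads could belong there. Of 16 genes in the pathway list, 7 were called higher and 2 lower, beside 12.9% and 11.7% of all genes, with a median of 0.38 log2. The share called lower was thus near that of all genes. GNAS, the stimulatory G protein that couples the receptor to adenylate cyclase, had means of 1119 and 1240 CPM, with a log2 fold change of 0.15 and a 95% interval of -0.07 to 0.37. Among cyclases of the list, ADCY9 rose 3.64-fold, ADCY6 fell (-0.61 log2) and ADCY3 did not pass, and ADCY2, which is not in the list, fell 33.2-fold. The cAMP phosphodiesterases PDE4B (3.48 log2, or 4.15 without day 16 replicate 1), PDE8B (3.94-fold), PDE10A (2.94-fold) and PDE4D (1.73-fold) all rose, and CREB1, a transcription factor activated by the pathway, fell by 0.64 log2. The call of ADCY6 was lost without day 16 replicate 1 (edgeR adjusted p = 0.121), without day 45 replicate 1 (0.142) or 2 (0.0618) and with the 4 libraries alone (0.0681).

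Uptake and proteolysis of TG, the steps that free the hormone, had 6 of 10 genes higher and 0 lower (median 1.17 log2), where 12.9% of all genes were higher. CTSB, the cathepsin with the most counts of the list, went from 137 and 116 CPM to 1088 and 1050, 8.46-fold higher (3.08 log2, SE 0.13, edgeR adjusted p = 3.4e-19). LRP2 (megalin), an endocytic receptor for TG, rose 3.89-fold, CTSD 2.18-fold, CUBN 2.31-fold and LGALS3 3.22-fold. CTSS rose 12.7-fold, but from libraries of 1 and 19 counts, and its log2 fold change ran from 2.73 without day 16 replicate 1 to 6.80 without day 16 replicate 2. CTSL, CTSK, ASGR1 and AMN did not pass.

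For hormone conversion, transport and receptors, 5 of 12 genes were higher and 4 lower (12.9% and 11.7% over all genes), with a median of 0.95 log2 that was -0.05 without day 45 replicate 2. DIO2, the deiodinase that converts thyroxine to triiodothyronine, went from 45.6 and 44.2 CPM to 565 and 732, 14.4-fold higher (3.85 log2, SE 0.15, edgeR adjusted p = 1.2e-20). Its annotated span includes the antisense gene DIO2-AS1. DIO1 (2.9-fold, edgeR adjusted p = 0.0472) and DIO3 (3.29-fold) rose from low counts. Plasma membrane carriers went both ways. SLC7A8 stood at 123 and 101 CPM and then 48.9 and 46.8 (2.35-fold lower) and SLC16A10 fell by 0.92 log2. SLCO4A1 was called higher from 2 and 0 counts to 40 and 22 (ratio 30.8, 95% counting interval 8.19 to 260), and SLCO1C1 from 0 and 0 to 1 and 45, at least 6.75-fold. These calls were lost without day 16 replicate 2 (edgeR adjusted p = 0.12 and 0.157), and also without day 45 replicate 1 for SLCO4A1 (0.113) and without day 16 replicate 1 or day 45 replicate 2 for SLCO1C1 (0.159 and 0.543). The hormone receptor THRB fell 2.07-fold and THRA did not pass (0.14 log2, 95% interval -0.42 to 0.71). Calls of 3 other genes here depended on single libraries, with the smallest log2 fold changes at 1.22 for DIO1 without day 45 replicate 2, 0.87 for DIO3 without day 45 replicate 1 and -0.66 for SLC16A10 without day 16 replicate 2 (edgeR adjusted p = 0.254, 0.268 and 0.0741). DIO1 was also not called without TMM factors (edgeR adjusted p = 0.0662), with upper-quartile factors (0.0513) or without the count filter (0.0504).

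Several of the genes called lower had 0 counts at day 45. Among the 4434 called genes that had more than 3 counts in both libraries of the lower day and met the size and overlap conditions, the 10 largest falls were those of DPP6, ADCY2, C5, LOC644634, LINC02249, GRB14, COL2A1, NTM, DPPA4 and PCYT1B, from 6.17 down to 4.18 log2. DPP6, a subunit of neuronal potassium channels, had 149 and 128 CPM at day 16 and 1.02 and 2.62 at day 45 (-6.17, SE 0.30, edgeR adjusted p = 1.0e-17). Without day 45 replicate 2 the log2 fold changes were -7.07 for DPP6, -5.70 for LOC644634 and -5.88 for LINC02249. ADCY2, an adenylate cyclase, went from 179 and 146 CPM to 6.53 and 3.28. COL2A1, the type II collagen of cartilage and notochord, went from 288 and 262 CPM to 10.3 and 16.8 (-4.32, SE 0.20). C5, a complement component, was already at a mean of 35.6 CPM at day 23 after 324 at day 16, and ended at 10.6. NTM is a neuronal adhesion molecule and GRB14 an adaptor that restrains insulin signalling, and both declined at every step of the course. By share of reads, the largest losses were those of FREM2, a basement membrane protein of embryonic epithelia (0.314% to 0.0524%), PRTG, an immunoglobulin superfamily protein of the early embryo (0.194% to 0.0108%), FOS, EGR1 and the glucose transporter SLC2A3 (0.119% to 0.0222%). PRTG fell from 1886 and 1921 CPM to 115 and 111 (-4.07 log2, SE 0.13, edgeR adjusted p = 3.4e-23).

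HOX genes, which set position along the body axis, were called in 1 direction. Of 39 listed, 24 were tested, and 11 of these were called lower and 0 higher, beside 11.7% of all genes called lower. Their median was -4.60 log2, or -2.52 with the 15 genes at or under the floor at one day set to their bounds, and it ran from -3.82 without day 16 replicate 2 to -6.15 without day 45 replicate 2. HOXA3 went from 304 and 413 counts to 0 and 0, at least 117-fold lower against the floor of 3 counts per library. HOXA4 (65 and 174 counts) and HOXA5 (69 and 84) were likewise at 0 in both day 45 libraries, and HOXA2 went from 101 and 100 counts to 0 and 1. HOXB2 (-4.33 log2), HOXB3 and HOXB4 fell but kept counts at day 45. HOXB2 had 2 and 16 counts there and ran from -3.65 without day 45 replicate 1 to -6.18 without replicate 2, and HOXB3 was at -2.74, or -3.41 without replicate 1. HOXA3 held its level up to day 31, with means of 44.7, 47.7 and 46 CPM at days 16, 23 and 31, and was at 0.287 at day 38. HOXA3 overlaps HOXA4, HOXA5 and HOXA6 on its own strand, so counts within the cluster are not independent of each other. HOXD4 and HOXD11 had 0 counts in all 10 libraries.

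Of called genes meeting the same conditions, 10 had no more than 3 counts in either library of day 45. The one with the largest bound was NKX1-2, a homeobox gene of the posterior embryo. It went from 428 and 582 counts to 0 and 1, a ratio of 1015 with a 95% counting interval of 182 to 40131. The others included HOXA3, SPSB4, UGT3A1, HOXA4, LINC00869, EVX1, HOXA2 and TSG1, the last not called by DESeq2 (adjusted p = 0.111). The promoter of LOC644634 lies within LINC00869 on the same strand, so the falls of LOC644634 and LINC00869 may not be independent. EVX1, a homeobox gene next to the HOXA cluster that overlaps EVX1-AS, had 141 and 74 counts and then none, at least 35.4-fold lower.

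The list of pluripotency and embryonic genes had 15 of 22 tested members lower and 4 higher (median -1.43 log2), against 11.7% and 12.9% of all genes. LIN28A and LIN28B, RNA-binding proteins that block let-7 maturation, both fell. LIN28A went from 314 and 216 counts to 0 and 6 (-6.47 log2), so that its day 45 level rests on 1 library. It was at -5.63 without day 45 replicate 1 and at -11.15 without day 45 replicate 2, which left only the library of 0 counts. LIN28B fell 12.3-fold (116 and 126 CPM to 12.5 and 7.21). TRIM71, a target of let-7, fell 8.84-fold (162 and 142 CPM to 16.8 and 17.6), and DPPA4, SALL4 (-2.98 log2) and L1TD1 (-3.11 log2, or -3.72 without day 45 replicate 2) fell as well. POU5F1, the core pluripotency factor, had 0 counts in the 4 libraries. It lies on chromosome 6 among the HLA genes, where the assembly has alternate sequences, so this zero is uncertain. The members that rose were IGF2, H19, PEG10 and AFP, which are fetal and imprinted genes and not genes of the pluripotent state. IGF2, a fetal growth factor, went from 1.01 and 1.6 CPM to 109 and 88.7 (75.7-fold, 6.22 log2, SE 0.36, edgeR adjusted p = 8.5e-16). Its neighbour H19, an imprinted noncoding RNA, went from 18.9 and 17.5 to 438 and 286 (19.9-fold). IGF2 overlaps INS-IGF2 on the same strand and IGF2-AS on the other, so its count is uncertain.

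Among 39 tested transcription factors of endoderm and foregut, 7 were higher, 10 lower and 22 not called (median -0.04 log2), beside 12.9% of all genes higher and 11.7% lower. ISL1, a LIM-homeobox factor of pharyngeal mesoderm and endoderm, fell from 81.1 and 107 CPM to 8.71 and 9.72 (10.2-fold, edgeR adjusted p = 3.1e-15). EYA1, a cofactor of pharyngeal arch development, fell 9.45-fold, GATA3 6.04-fold and the BMP-responsive ID1 7.04-fold (837 and 881 CPM to 126 and 118). TBX3, next to ID1 in CPM at day 16, fell by 1.06 log2. In the other direction, GLIS3, a zinc finger factor needed for thyroid hormone production, rose from 6.72 and 13.5 CPM to 133 and 141 (13.5-fold, 3.75 log2, SE 0.26, edgeR adjusted p = 8.7e-14). SOX9 rose 8.59-fold, from 9.89 and 8.99 CPM to 80.4 and 81.7, and FOXA1 from 0 and 5 counts to 112 and 137. GLIS3 was at 4.35 log2 without day 16 replicate 2. FOXA1 was at 5.58, at 4.62 without day 16 replicate 1 and at 10.08 without day 16 replicate 2. The last value rests on a day 16 library with 0 counts, so its size depends on the prior count. SOX9 and FOXA1 are factors of several foregut derivatives, the lung among them. FOXA2 did not pass (12 and 22 counts, then 23 and 43).

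Of 40 cell cycle genes, 21 were called lower, 0 higher and 19 not called (median -1.06 log2), with 11.7% of all genes lower. The replication helicase genes MCM2 to MCM7 all fell, MCM2 from 50.3 and 50.8 CPM to 12.9 and 8.41 (4.74-fold, edgeR adjusted p = 3.9e-08) and MCM5 by 2.45 log2. Without 1 library MCM5 reached -3.25 (day 45 replicate 2) and MCM6 moved from -1.57 to -0.97 (day 16 replicate 2). The licensing factor CDT1 (-2.70 log2, from -4.30 without day 45 replicate 1 to -1.90 without replicate 2), BUB1 of the mitotic checkpoint (-2.23 log2) and MKI67 fell too, MKI67 from 239 and 194 CPM to 81.4 and 123 (2.12-fold). CDK1, CCNB1 and PLK1 had lower values but did not pass (edgeR adjusted p = 0.0587, 0.0819 and 0.0702), and all 3 were called lower without TMM factors (0.0294, 0.0359 and 0.0454). CDK1 was also called with upper-quartile factors (edgeR adjusted p = 0.0494) and without day 16 replicate 1 (0.0188). CDKN1A (p21) rose 16.6-fold, from 12 and 10.6 CPM to 215 and 162 (4.05 log2, SE 0.24, edgeR adjusted p = 2.2e-15), and CDKN1C (p57) 9.11-fold, from 21.4 and 27.8 to 234 and 215. CDKN2B also rose (3.16 log2), whereas CDKN1B (p27) fell by 1.25 log2 and CDKN2A, CDKN2C and CDKN2D did not pass (edgeR adjusted p = 0.129, 0.407 and 0.227). The D cyclins CCND1, CCND2 and CCND3, which drive entry into the cycle, were higher by 1.25, 0.94 and 2.14 log2, so the 6 of 10 members called higher in this list, beside 12.9% of all genes, include both brakes and drivers.

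**Figure D3:**
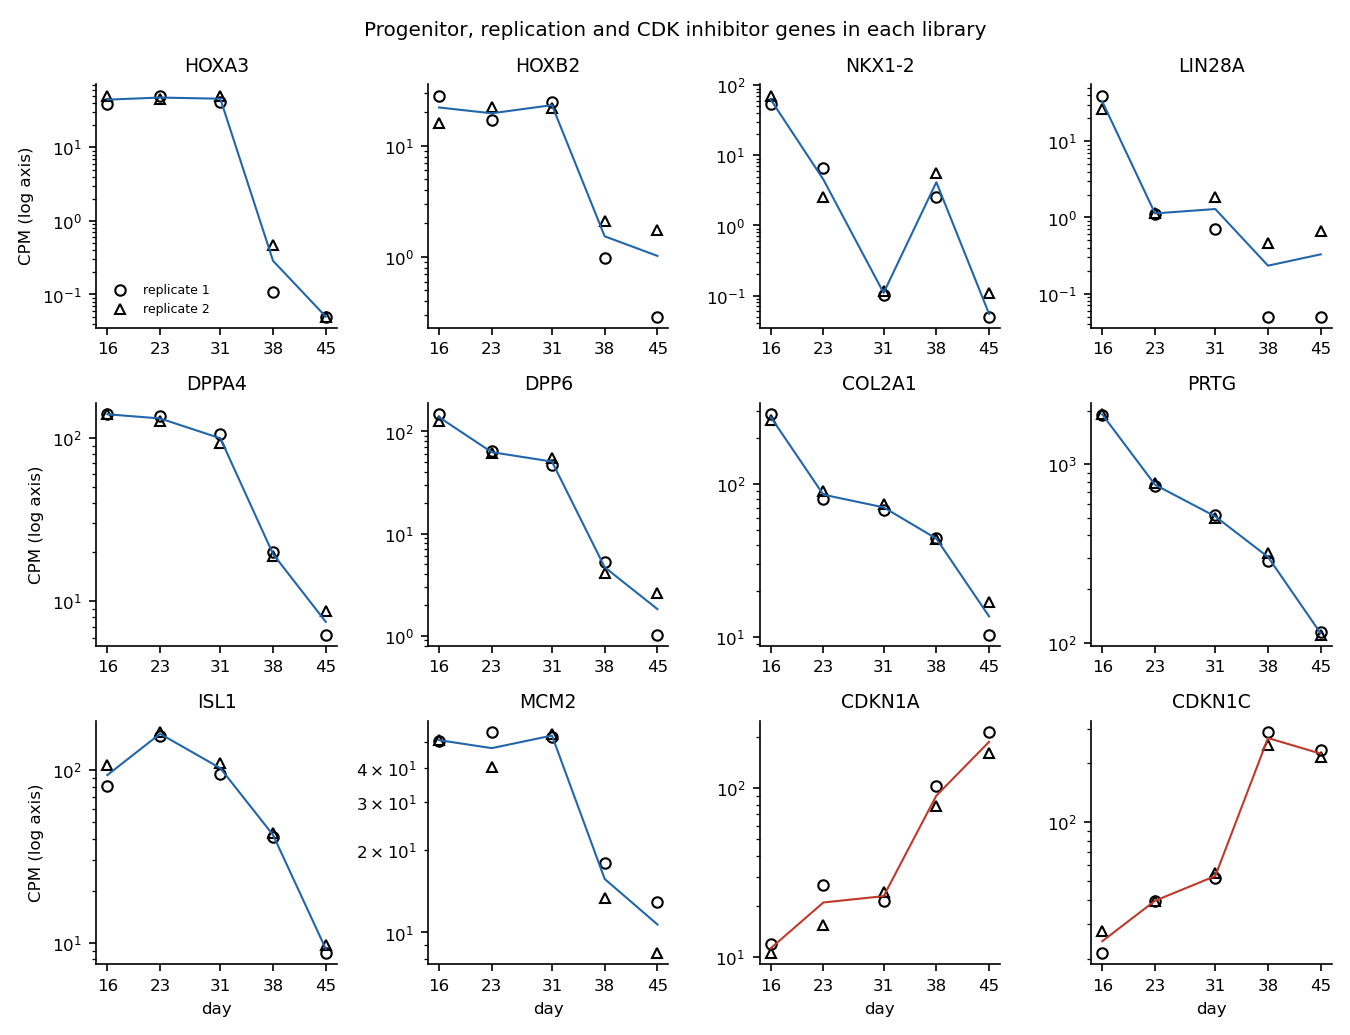
CPM on a log axis against day for 10 genes that fell and 2 that rose between days 16 and 45, with circles and triangles for the 2 replicates, a line through the day means and values under 0.05 drawn at 0.05. HOXA3, HOXB2 and MCM2 held near their day 16 level up to day 31 and were lower at days 38 and 45, whereas LIN28A, COL2A1 and PRTG were already lower at day 23.

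Of 28 epithelial genes of junctions and polarity, 10 were higher and 5 lower (median -0.06 log2), and of all genes 12.9% and 11.7%, so that the share called lower was not far from that of all genes. CDH1 (E-cadherin) had means of 562 and 695 CPM, a log2 fold change of 0.31 and a 95% interval of 0.06 to 0.56 that did not pass after adjustment (edgeR adjusted p = 0.0658). CDH1 was called higher by DESeq2 (adjusted p = 0.021), with the replicate block (edgeR adjusted p = 0.0349) and without day 16 replicate 1 (0.00377). CLDN1, a tight junction claudin, rose 6.53-fold and the epithelial factor ELF3 6.47-fold. KRT7 went from 1 count to 135, a ratio of 134 (95% counting interval 23.7 to 5345). The simple-epithelium keratins KRT8 and KRT18, whose genes overlap on opposite strands, fell 1.87-fold and 2.29-fold, KRT8 from 805 and 813 CPM to 428 and 436. Of 13 genes of the mesenchymal state, 0 were higher and 3 lower (12.9% and 11.7% over all genes), namely CDH6 (6.33-fold lower), CDH2 (-0.80 log2) and SPARC (-0.46 log2), while VIM and FN1 did not pass at 0.09 and 0.03 log2.

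Basement membrane genes and integrins had 13 of 31 members higher and 5 lower, beside 12.9% and 11.7% of all genes, so that the share called lower was again near that of all genes. The embryonic laminin chain LAMB1 fell from 609 and 710 CPM to 187 and 185 (3.55-fold, edgeR adjusted p = 1.5e-13), nearly all of it by day 23 (mean 189). NID2 (2.97-fold) and COL4A6 (-1.80 log2) also fell. LAMA3 and LAMB3, laminin chains of mature epithelia, rose by 2.66 and 4.79 log2. LAMB3 rose by 3.78 without day 16 replicate 2 and by 11.56 without day 16 replicate 1. ITGB6, an epithelial integrin subunit that can activate latent TGF-beta, went from 1.52 and 0.492 CPM to 48 and 56.7 (5.69 log2, SE 0.40, edgeR adjusted p = 1.7e-13). The day 16 level of ITGB6 rests on 12 and 4 counts, and the difference was 6.68 log2 without replicate 1 of that day and 5.09 without replicate 2.

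In the list of folding and export factors of the endoplasmic reticulum, 18 of 26 genes were higher and 0 lower (median 1.01 log2), compared with 12.9% of all genes higher. HSPA5 (BiP), the main chaperone of that compartment, went from 296 and 304 CPM to 943 and 1004 (3.25-fold, 1.70 log2, SE 0.12, edgeR adjusted p = 1.2e-13). HERPUD1 rose 3.41-fold, DNAJC3 2.88-fold, XBP1 2.62-fold and CANX 2.43-fold. HSPA5 had means of 300, 274 and 303 CPM at days 16, 23 and 31 and 835 at day 38.

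Of 30 antioxidant genes, 13 were higher and 3 lower (median 0.47 log2), while 12.9% of all genes were higher and 11.7% lower, a lower share near that of the list. HMOX1, haem oxygenase, went from 7 and 8 counts to 346 and 451 (53.1-fold, 5.71 log2, SE 0.53, edgeR adjusted p = 1.1e-10), with a mean of only 3.02 CPM at day 38. GPX3, a secreted glutathione peroxidase abundant in thyroid, rose from 12.5 and 20.7 CPM to 143 and 179 (9.69-fold), also mainly after day 38, when its mean was 37.4. SOD2 rose 3.18-fold and GPX4 2.55-fold, while PRDX1, GCLC and GPX8 fell by 0.55 to 0.76 log2. The PRDX1 call was lost without day 16 replicate 2 and without either day 45 library (edgeR adjusted p = 0.454, 0.0767 and 0.0997) and with the 4 libraries alone (0.0601), and that of GCLC without day 45 replicate 1 (0.206). MT1E had 0 and 0 counts and then 90 and 109, at least 33.3-fold higher, and MT1 genes are close copies whose reads can be shared.

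There were 3 lists of genes that respond to agents in the medium. Of 18 genes that glucocorticoids are known to induce, 12 were higher and 2 lower (median 1.26 log2), and among all genes 12.9% were higher and 11.7% lower, again a lower share near that of the list. CEBPD went from 2.28 and 4.8 CPM to 136 and 127 (37-fold), SGK1 from 19.8 and 19.7 to 116 and 94.8 (5.34-fold), and FKBP5 from 61.6 and 28.8 to 123 and 129 (2.79-fold). CEBPD moved from 5.20 to 5.84 log2 without day 16 replicate 2, and FKBP5 from 1.48 to 2.12 without day 16 replicate 1. PER1 (-0.91 log2) and DUSP1 (-0.72 log2) fell, the first losing its call without day 16 replicate 1 or day 45 replicate 2 (edgeR adjusted p = 0.0676 and 0.0791). CEBPD was already at 29.9 and 82 CPM at days 23 and 31, while FKBP5 stood at 30.7 and 36.9 on those days and at 149 on day 38.

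For TGF-beta targets, 8 of 20 were higher and 4 lower (12.9% and 11.7% over all genes), with a median of 0.49 log2 that was -0.05 without day 45 replicate 2. The inhibitory SMADs SMAD7 and SMAD6 fell from 217 and 173 CPM to 61.2 and 57 (3.3-fold) and from 160 and 106 to 34.3 and 32.4 (4-fold), and SKIL and TGIF1 fell by 0.69 and 1.47 log2. TGFBI, a secreted matrix protein, rose by 4.93 log2 and INHBA, a TGF-beta family ligand subunit, by 5.40. Their day 16 libraries held 22 and 7 counts of TGFBI and 4 and 24 of INHBA. Without replicate 1 and without replicate 2 of that day, TGFBI was at 5.98 and 4.31 log2 and INHBA at 4.63 and 7.15. By the library labels the receptor inhibitor was present at day 45 only, although a passage of the study starts it before day 38. TGFBI stood at 51.3 CPM at day 38 and at 55.8 at day 45.

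Of 16 genes responsive to cAMP and CREB, 7 were higher and 4 lower (median 0.32 log2), beside 12.9% and 11.7% over all genes. FOS fell from 1649 and 1582 CPM to 382 and 338 (4.49-fold, edgeR adjusted p = 4.2e-17), with 1459 at day 38, and EGR1 fell 1.99-fold, with uneven day 16 libraries of 2688 and 1615 CPM. PPARGC1A, a coactivator of mitochondrial biogenesis, rose 9.06-fold, from 11.8 and 15 CPM to 96.2 and 147. NR4A2 was higher at day 45 (2.86-fold) after means of 2.56 and 5.03 CPM at days 23 and 31, but was not called by DESeq2 (adjusted p = 0.181). FOS, EGR1 and NR4A2 are immediate early genes that also respond to cell dissociation, and the part of the sort in these values was not tested.

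A further group of genes was at or under the floor at day 16 and expressed at day 45. There were 64 such genes among those that met the size and overlap conditions, and the 10 with the largest bounds were CXCL8, PPY, SERPINA1, DMBT1, FNDC1, KCNJ15, CEACAM5, PTGDS, CEACAM6 and CCL20. CXCL8, a chemokine for neutrophils, went from 3 and 0 counts to 4393 and 4973, a ratio of 3107 (95% counting interval 1063 to 15067). PPY, the pancreatic polypeptide hormone, had 0 and 0 counts and then 2405 and 3066, at least 912-fold higher. Its relative PYY, in the same region of chromosome 17, had 10 and 18 counts and then 991 and 1369 (84.2-fold, 6.38 log2, SE 0.35). SERPINA1, the antitrypsin of liver and epithelia, went from 1 and 3 counts to 2310 and 2492 (ratio 1195, 95% counting interval 466 to 4386). KCNJ15, a potassium channel, and CCL20, a chemokine for lymphocytes and dendritic cells, were at 0 in both day 16 libraries and rose at least 281-fold and at least 222-fold. PTGDS, prostaglandin D synthase, went from 0 and 1 counts to 686 and 801, and FNDC1 from 0 and 3 to 1025 and 1292, having been higher still at day 38 (257 CPM against 145).

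In 3 genes of this kind the day 45 replicates were far apart. CEACAM5, an epithelial adhesion protein, had 152 and 1650 counts, CEACAM6 312 and 1206, and the mucosal glycoprotein DMBT1 923 and 3157, and in each the second library was higher. CEACAM5 and CEACAM6 are close relatives whose reads could be shared. MUC13, a cell-surface mucin among the 10 largest rises with more than 3 counts in both day 16 libraries, showed the same unevenness (9 and 5 counts at day 16, 107 and 662 at day 45), with a log2 fold change of 4.12 without day 45 replicate 2 and 6.34 without replicate 1. The other genes of that ranking, beyond TG, PYY, IGF2, DUOX2, HMOX1 and ITGB6, were SLA, MIR4435-2HG and CP. CP (ceruloplasmin), a copper carrier, rose 54.5-fold, from 1.01 and 1.85 CPM to 85.5 and 70.4. SLA lies within TG on the opposite strand over 66185 bases, so its rise (5.90 log2, or 6.5 without day 16 replicate 1) cannot be told apart from TG reads without strand. MIR4435-2HG has a near-identical copy in the genome, and its value is uncertain for that reason.

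Of 20 chemokines and cytokines tested, 15 were higher, 0 lower and 5 not called, beside 12.9% of all genes higher, with a median of 4.60 log2, or 4.27 with 6 genes at their bounds. CXCL2, the member with the highest CPM, went from 40.6 and 31.8 to 817 and 834 CPM (22.8-fold, 4.51 log2, SE 0.19, edgeR adjusted p = 2.2e-19). CXCL1 went from 0 and 0 counts to 488 and 439, at least 158-fold higher, and CCL2 from 1 and 12 counts to 516 and 747 (6.57 log2, with 5.70 without day 16 replicate 1 and 9.11 without replicate 2). IL6, an acute-phase cytokine, had 7 and 0 counts and then 154 and 110 (5.24 log2). It was at 4.25 log2 without day 16 replicate 2. Without day 16 replicate 1, which left only the library of 0 counts, it was at 10.21. TNF had 0 counts in all 10 libraries and CXCL10 0 in these 4. TNF lies among the HLA genes, which have alternate sequences in the assembly, so its zero is uncertain. CXCL1, CXCL2 and CXCL3 are close copies. CXCL8 stood at means of 5.74 CPM at day 31, 102 at day 38 and 590 at day 45.

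Complement and acute phase genes had 10 of 19 tested members higher and 0 lower (median 1.59 log2, or 2.51 without day 16 replicate 1), against 12.9% of all genes higher. C5, a complement component that is not in the list, fell 30.5-fold. C3, the central complement component, went from 5.2 and 3.08 CPM to 212 and 150 (43.7-fold), and the fibrinogen genes FGA, FGB and FGG all rose, FGG from 0 and 0 counts to 195 and 223. FGA had 14 and 1 counts at day 16 and FGB 11 and 0, and without day 16 replicate 2 their differences were 3.20 log2 (4.10 with it) and 5.74 (6.74 with it). FGA was at 6.89 without day 16 replicate 1 and at 3.35 without day 45 replicate 1. FGB was at 12.34 without day 16 replicate 1, which left only the library of 0 counts. C4A and C4B had 0 counts in all 10 libraries and are copies of one another.

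Markers of other cell types were counted in the same sorted cells, and each list is given with its summed CPM, its counts to be read beside the 12.9% of all genes called higher and 11.7% called lower. Fibroblast markers had 8 of 10 higher and 1 lower, and their sum went from 983 and 1212 CPM to 4779 and 3873. COL3A1, the most abundant of them, rose from 309 and 509 CPM to 2144 and 1677 (4.67-fold, edgeR adjusted p = 7.9e-14), COL1A1 3.65-fold and DCN by 4.46 log2 (3.76 without day 16 replicate 1 and 5.82 without replicate 2), whereas PRRX1, a mesenchymal transcription factor, fell by 2.22 log2. Liver and gut markers had 10 of 20 higher and 0 lower, with a sum of 41.7 and 29.1 CPM and then 767 and 745. Of that list SERPINA1 was the most abundant at day 45, and ALB (albumin) went from 2 and 8 counts to 820 and 877. ALB was at 7.39 log2, 6.74 without day 16 replicate 1 and 8.65 without replicate 2, and AFP at 4.20, or 5.06 without day 16 replicate 2. Goblet and secretory airway markers had 6 of 10 higher (9.76 and 13.2 CPM in sum, then 189 and 152, with a median of 3.76 log2, or 2.62 with 5 genes at their bounds and 6.52 without day 16 replicate 2), with MUC5B the most abundant at day 45. MUC5B rose by 5.04 log2, and by 4.31 without day 16 replicate 1, 6.53 without day 16 replicate 2 and 4.44 without day 45 replicate 1. MUC5AC, a defining goblet mucin, had 0 and 0 counts and then 3 and 19, a call lost without day 45 replicate 2 (edgeR adjusted p = 0.068) and with the 4 libraries alone (0.149), and SCGB3A1 had 0 in the 4 libraries.

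Airway basal markers had 3 of 8 higher, all keratins (32.2 and 24 CPM in sum, then 140 and 116). KRT17 went from 0 and 0 counts to 556 and 629 (at least 199-fold) and KRT5 from 1 count to 512 (ratio 509, 95% counting interval 91 to 20161), while TP63, the defining transcription factor of basal cells, did not pass (120 and 86 counts, then 51 and 96). Cardiovascular and muscle markers had 8 of 19 higher (173 and 152 CPM in sum, then 575 and 552), with RYR2 the most abundant, DES 21.7-fold and MYH6 12.1-fold higher. Distal lung markers had 3 of 11 higher, namely SFTPB (4.26 log2, or 5.01 without day 16 replicate 1), ABCA3 and SLC34A2 (2.89 log2, 3.59 without day 45 replicate 2 and not called without replicate 1, edgeR adjusted p = 0.187), with SFTPC at 0 in these libraries, and their median was 1.39 log2, or 0.42 with 2 genes at their bounds and 0.18 without day 45 replicate 2 (113 and 96.9 CPM in sum, then 221 and 230). The summed CPM of each of these 6 lists was higher in both day 45 libraries than in both of day 16, and their part in the changes above was not tested. For scale, the summed CPM of the 4 lineage factors was 1810 and 1420 at day 16 and 947 and 946 at day 45, and that of the hormone synthesis list 238 and 198 at day 16 and 8780 and 8350 at day 45.

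**Figure D4:**
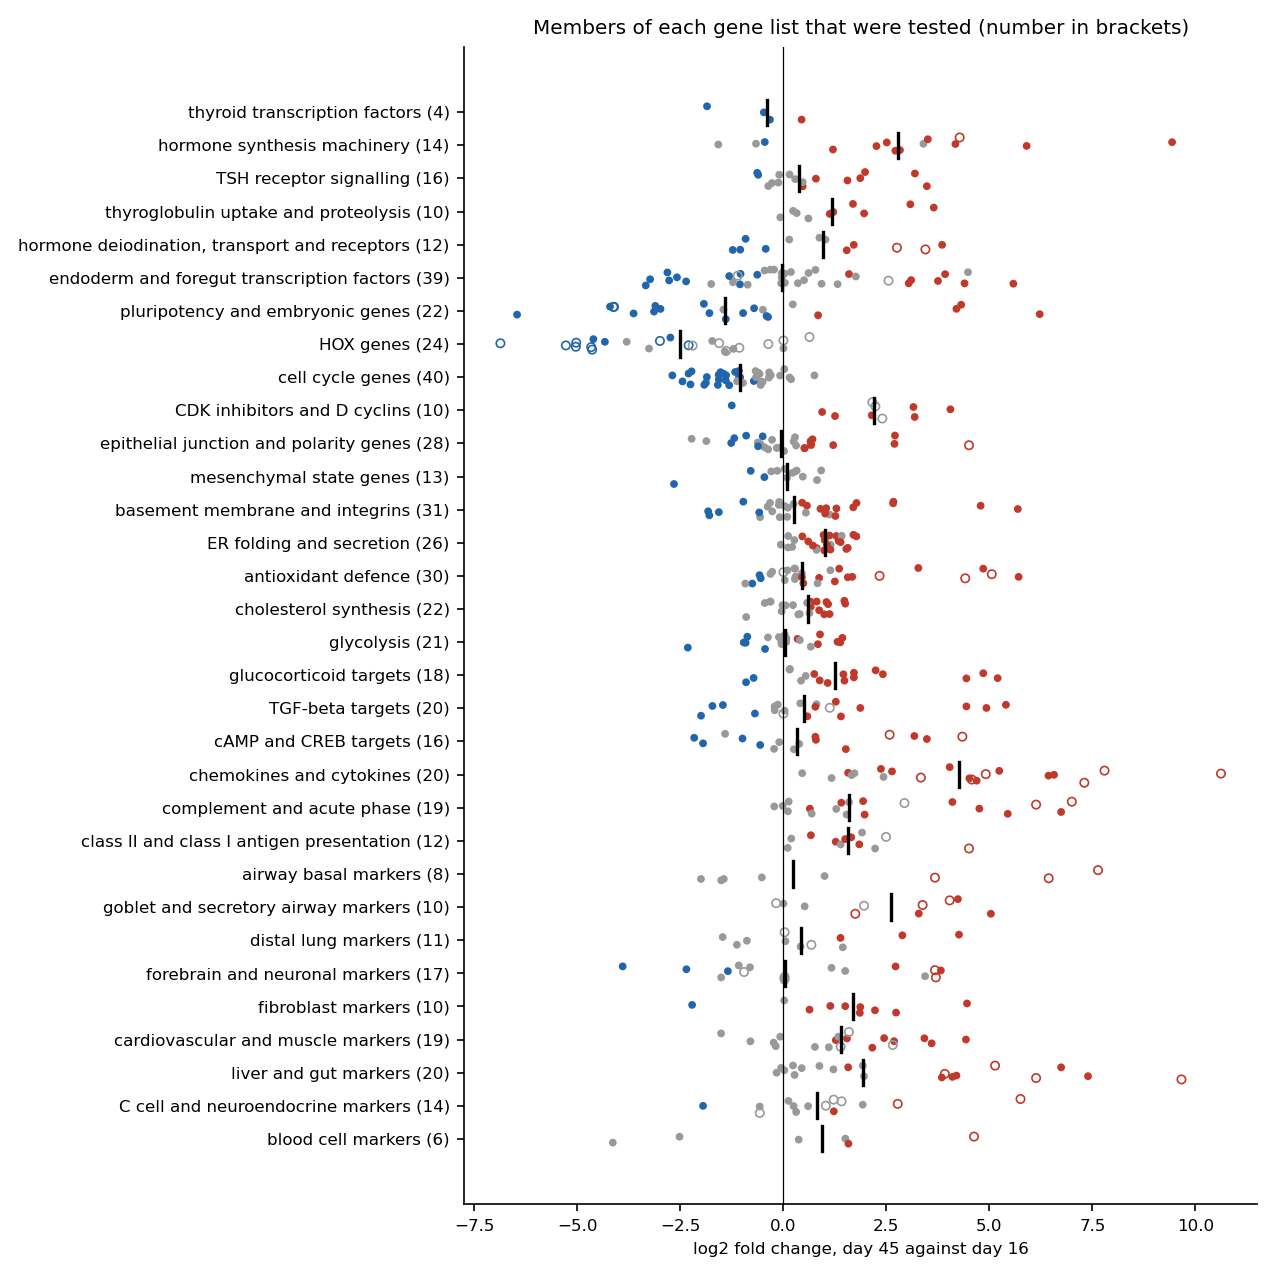
Log2 fold change of each tested member of the 32 gene lists, red for genes called higher, blue for genes called lower and grey for the rest, with a black bar at the median and the number tested in brackets. Open circles are genes at or under 3 counts in both libraries of one day, drawn at their bound, and the HOX, cell cycle and pluripotency lists lie to the left while hormone synthesis and chemokines lie to the right.

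Over the whole course, most of the difference between the ends was reached late. For each called gene, the first day was found from which its mean log2 CPM stayed past the midpoint between the ends. Of the 2721 genes higher at day 45, 486 (17.9%) passed it by day 23, 342 (12.6%) at day 31, 1051 (38.6%) at day 38 and 842 (30.9%) only at day 45. Of the 2454 lower genes, 1278 (52.1%) passed it only at day 45 and 713 (29.1%) at day 38. Days 23 and 31 shared the c-AMP label, so the step between them carried no labelled change of medium. A passage of the study, however, places the switch to TSH and dexamethasone before day 31. The other steps coincided with changes of medium by the labels or the study's methods. Between the ends, age and medium cannot be told apart. Comparison of the ends also missed change, since 7628 genes were called over any day and 2985 of them were not called between days 16 and 45. For 2318 of the genes called over any day, the interval between the ends lay within 1 log2, and of these 147 had an intermediate day more than 1 log2 above the middle of the ends and 176 one as far below.

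**Figure D5:**
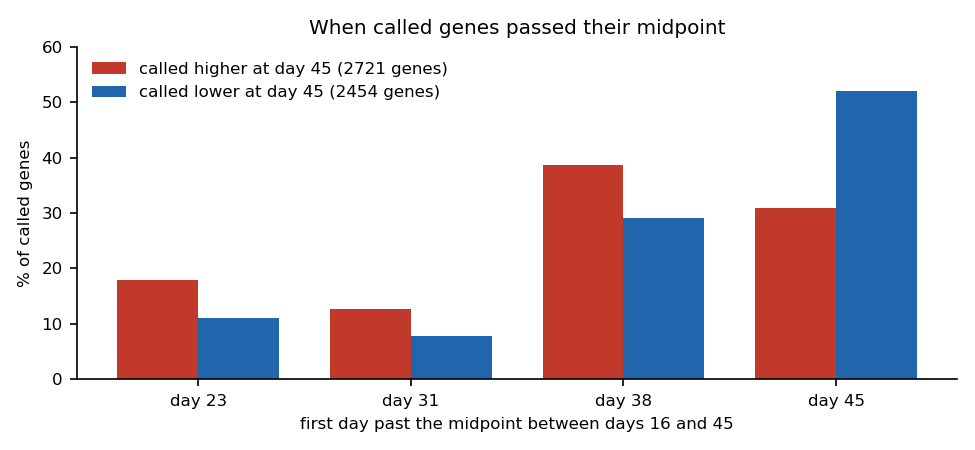
Percent of genes called higher (red, 2721 genes) and lower (blue, 2454 genes) at day 45 by the first day from which their mean log2 CPM stayed past the midpoint between days 16 and 45. Among lower genes, 52.1% passed it only at day 45, and among higher genes 38.6% did so at day 38.

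Promoters of the hormone synthesis genes and of the genes named by rank were searched for 3 motifs in the 250 bases before the RefSeq start (GRCh38.p14), on both strands. They were the core motif of NKX2 factors, CAAGTG, which also fits the E-box pattern CANNTG, the cAMP response element TGACGTCA and the forkhead motif TGTTTAC, which occur in 9.59%, 1.77% and 2.98% of 27305 promoters. Of 14 hormone synthesis genes, 9 had a promoter in the table, and 0 of these held any of the motifs. The NKX2 core was in 3 of 9 matched genes of those at or under the floor at day 45, in 1 of 10 of those at or under it at day 16, in 1 of 9 of the largest falls above it and in 0 of 5 of the largest rises above it, where 1 promoter held the cAMP response element. The forkhead motif was in 0 of these. These 6 matches are shown 5′ to 3′ along the gene, with the motif in capitals (for the NKX2 core its reverse complement, except in LOC644634), because they lie in genes with large changes between the days.
NKX1-2 (chr10:124450048-124450077, minus strand): cctccccagcttCACTTGgcagcgcggacc
HOXA4 (chr7:27130851-27130880, minus strand): gggaggagtgggCACTTGacagcgggggga
EVX1 (chr7:27242691-27242720, plus strand): tttctatttatcCACTTGcgctcgccgagt
LOC644634 (chr1:149702047-149702076, plus strand): atttccgtcggcCAAGTGcgtgggcattga
FNDC1 (chr6:159169166-159169195, plus strand): aacttcctcagcCACTTGgcccggcacagc
MUC13 (chr3:124934801-124934830, minus strand): tttctgtggttTGACGTCAattaatgactg
A match says only that these letters are in the window, and no test of the counts was made.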

How the data were processed

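Live NKX2-1 GFP+ cells were sorted, RNA was made into low-input libraries, and the submitters' notes name Trimmomatic for trimming, HISAT2 for alignment to GRCh38.p13 and HTSeq for counting per gene. The deposited values are raw counts, whole numbers with no normalization, 1 file per library. The strand setting and the tools' versions are not given in the sources used here, and no molecular identifiers are named, so that intervals cover counting error only. Groups were taken from the titles.

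Tests used R 4.3.3 with edgeR 4.0.16 (TMM, glmQLFit, glmQLFTest) on all 10 libraries, 1 mean per day, which share 1 estimate of the spread. Genes had at least 5 counts in at least 2 libraries, with Benjamini-Hochberg adjustment of p over the 21014 genes tested. SEs are the log2 fold change over the root of F and are approximate. Replicates of a day differed by more than sampling noise (chi-square per degree of freedom 8.38 to 13.7) and were counted as separate. Nothing else shows that they came from separate cultures than the study's statement of biological replicates. The fit was tested on simulated data with 200 changed genes. It recovered 32% of changes of 1 log2 and 60% of changes of 2 log2, with 2 false calls among 94. Far fewer genes changed there than were called in the data, which makes the adjustment of p stricter. These shares therefore do not measure recovery in the real comparison. A gene that did not pass can still have changed.

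Genes named by rank were called, averaged 5 CPM or more across both days and did not overlap between them. They were the 10 largest in each direction with more than 3 counts in both libraries of the lower day, the 10 largest bounds in each direction at or under 3 counts in both libraries of a day, and the 5 largest gains and losses in share of reads. The other named genes belong to 32 lists from general knowledge (616 genes, 615 in the files, 566 tested). The comparison, the members and the lists were chosen with earlier results of these data known. Lists are described by counts and medians, without a test. A bound divides the mean CPM of the higher day by that of 3 counts per library. Positions are from GENCODE 44 on GRCh38 (91.1% of symbols matched) and promoters from RefSeq. Alternatives were DESeq2 1.42.0, library size without TMM, upper-quartile factors, 3 other filters, the 4 libraries alone, a replicate block and leaving out each library. Some genes of these lists and ranks are not reported here.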

Additional observations from a re-analysis of the deposited data

How the results depend on the processing

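The number of genes called ran from 4073 to 4546 when 1 of the 4 libraries was left out (2067 to 2481 higher), and from 4579 with the 4 libraries alone to 5460 with a replicate block over the other alternatives, within 1.5 times of 5175 in each. Without TMM factors the median of all genes moved to -0.093 and higher calls were 2348 of 5230. Same-numbered libraries did not deviate together (r from -0.03 to 0.02 over the 10 pairs of days), so the number was not taken as a pairing, and the replicate block called 5460 genes, 2877 of them higher. Of 185 named genes called, 19 lost the call under at least 1 of the 12 alternatives and none changed sign. Called genes with more than 3 counts in at least 1 library of the lower day numbered 154. The fold of 35 of them moved by over 1.5 times without 1 library. Values without 1 library stand beside these 35 genes above or, for CD68, in the next sentence. CD68 was at 1.58 log2, or 2.21 without day 16 replicate 1. CD68 (without day 16 replicate 2, edgeR adjusted p = 0.0945) and TSG1 (without day 45 replicate 2, 0.0567; DESeq2, 0.111) lost their calls. Genes not called that changed sign were FN1 (-0.07) and VIM (-0.01) without TMM factors and AMN (-0.08) with the block. Without 1 library, ADCY3 ran from -0.31 to 0.04, AMN from -0.53 to 1.93, CTSK from -0.40 to 0.18, FN1 from -0.05 to 0.10, THRA from -0.17 to 0.53 and VIM from -0.06 to 0.22. The cause of these shifts was not tested. List medians under 0.1 in size for foregut factors, epithelial junctions, glycolysis and mesenchymal genes changed sign under some alternatives, and larger ones did without 1 library for hormone deiodination and TGF-beta targets (-0.05 each) and blood cell markers (-0.52) without day 45 replicate 2 and airway basal markers (-0.01) without day 16 replicate 1. Counts near the floor limit the precision of ratios.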

Other observations

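Genes of cholesterol synthesis had 10 of 22 members higher and 0 lower (median 0.60 log2), against 12.9% of all genes higher, among them HMGCS1, an early enzyme of the pathway (0.81 log2), and INSIG1, which retains the sterol sensor. Glycolysis genes went both ways, with 6 of 21 higher and 5 lower (median 0.03 log2), where all genes had 12.9% and 11.7%. Antigen presentation had 6 of 12 tested genes higher and 0 lower (median 1.57 log2), beside 12.9% of all genes higher. HLA-DRA, a class II chain, went from 0 and 0 counts to 46 and 95, at least 22.7-fold higher against the floor of 3 counts per library, and its chaperone CD74 rose by 1.65 log2. PSMB8, PSMB9 and HLA-DPA1 had 0 counts in all 10 libraries, and genes of this region have alternate sequences in the assembly, so that these zeros are uncertain.

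Forebrain and neuronal markers had 4 of 17 tested genes higher and 3 lower, beside 12.9% and 11.7% of all genes (69.3 and 73.6 CPM in sum at day 16, 102 and 91.5 at day 45), and their median of 1.17 log2 was 0.03 with 5 genes at their bounds and 0.00 without day 45 replicate 2. C cell and neuroendocrine markers had 3 of 14 higher and 1 lower, beside the same shares (152 and 180 CPM in sum, then 139 and 106). Blood cell markers had 2 of 6 tested genes higher, again beside 12.9%, with CD68 the most abundant and CD3E at 0. Transient genes stood apart from the ends. SST, a secreted peptide of neuroendocrine cells, had means of 137, 965, 1054, 17.5 and 35.8 CPM over the 5 days, and SFTPB, a surfactant protein of distal lung, had 2.51, 157, 500, 7.6 and 48.2 CPM.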
